A study of Bos indicus with 5 samples.

Results

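The enzymes described here are 38 genes of glucose use: the steps of glycolysis from glucose to pyruvate, lactate dehydrogenase, the pyruvate dehydrogenase complex with its kinases, pyruvate carboxylase and PCK2, and enzymes of glycogen and of the pentose phosphate pathway. They were chosen by name: a gene of the ampulla table was kept when the symbol that follows its Ensembl identifier was 1 of the 38. Of these, 36 were found, each as 1 gene, among 24616 genes in the table, of which 19971 carry a symbol. ENO1 and DLAT were not matched by symbol and are not analysed here. After a filter that kept genes with a mean normalized read count over 5, 35 of the enzymes were tested, and GAPDH was left out by it.

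RNA was sequenced from the ampulla, the part of the oviduct in which fertilization takes place, of Nelore (Bos indicus) cows that were multiparous and not lactating. All cows were pre-synchronized with a GnRH agonist and then a prostaglandin F2 alpha analog. They next received an intravaginal progesterone device with estradiol benzoate. The prostaglandin analog was given when the device came out and again hours later. A GnRH agonist was then given to induce ovulation, and the cows were slaughtered on day 4 after it. In the large follicle and large corpus luteum group (LF/LCL, 2 libraries) the device was removed 42 h before GnRH. The prostaglandin analog was also given at device insertion in this group. In the small follicle and small corpus luteum group (SF/SCL, 3 libraries) the device was removed 30 h before GnRH, and the dose at insertion was not given. Per the paper, a further LF/LCL ampulla sample was dropped because its library was poor and gave few reads. Each library came from a different cow. Cows for sequencing had been picked from the top of the LF/LCL ranking and the bottom of the SF/SCL ranking by follicle, corpus luteum and steroid measures, so that they stand for the extremes of each treatment, and the treatment and the ranking cannot be told apart. The samples covered the whole thickness of the oviduct wall on the side of the corpus luteum, and therefore held epithelium, stroma, muscle and vessels.

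Glycolysis turns glucose into pyruvate, which is then either reduced to lactate or taken into mitochondria. Inside mitochondria, pyruvate is oxidised by pyruvate dehydrogenase, which its kinases switch off by phosphorylation. The rate of the phosphofructokinase step is set in large part by the signalling sugar made and removed by the PFKFB enzymes, and glucose 6-phosphate can instead be stored as glycogen or enter the pentose phosphate pathway, which provides NADPH and ribose. Pyruvate and lactate are major energy substrates of the early bovine embryo and are present in oviduct fluid.

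Read totals recovered from the table were 13418278 and 16171541 for LF/LCL replicates 1 and 2, and 14785598, 19592174 and 14277845 for SF/SCL replicates 1, 2 and 3, with 17431 to 17653 genes detected per library. The 36 enzymes together took between 0.333% and 0.359% of the normalized reads of a library, and these shares overlapped between the groups. Secretory epithelial markers (8 genes with OVGP1 among them) and ciliated cell markers (10 genes with FOXJ1 among them) were present in every library, except the ciliated marker PIFO, which was listed at 0 in 4 libraries. Of 10 smooth muscle markers listed, the 9 measured were all higher in LF/LCL, 8 with an unadjusted limma p under 0.05, and their summed level was 62047 to 120010 normalized reads in LF/LCL against 15485 to 41171 in SF/SCL. The 9 tested ciliated markers were all lower in LF/LCL, 8 with an unadjusted p under 0.05, with sums of 53523 to 66238 against 79316 to 80855. Secretory sums, made up mostly of OVGP1, overlapped, at 164228 to 182167 in LF/LCL and 165099 to 190506 in SF/SCL. Single secretory genes ran in both directions. The groups did not overlap for 5 of the 8, against 30.1% of all genes tested. Of these, KRT7, KRT8, EPCAM and PAX8 were higher and MUC16 was lower in LF/LCL. Proliferation markers (378 to 683 against 158 to 270.5) and immune markers (1711 to 1965 against 1139 to 1598) were higher in sum in LF/LCL. Of the 9 immune markers, 6 were higher and 3 (CD14, CD68 and CD163) lower in LF/LCL by log2 fold change. Stromal and endothelial sums overlapped. In tissue of mixed cells, fewer cells of a type and less RNA per cell cannot be told apart.

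None of the 35 enzymes passed an adjusted p of 0.05 with limma, which called 0 of all 15815 genes tested (0%). The smallest adjusted p among the enzymes was 0.248. An unadjusted limma p under 0.05 was reached by 5 of 35 enzymes (14.3%), against 1819 of all genes tested (11.5%). One of them, PFKFB3, was higher in LF/LCL, where 5.64% of all genes stood, and GPI, PFKFB4, LDHB and PDK1 were higher in SF/SCL, where 5.86% of all genes stood. DESeq2 on the recovered reads called 457 genes (2.89%), PFKFB3 and GPI among them, and the edgeR exact test called 335 (2.12%), PFKFB3 among them. The edgeR quasi-likelihood test and limma-voom called none of the enzymes. Their calls over all genes are not given here, so nothing is read from this.

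The libraries of the groups did not overlap for 11 of the 35 enzymes (31.4%), a share close to the 30.1% of all genes tested. PDK2, PDK3, PFKFB3 and PYGL were higher in both LF/LCL libraries than in any SF/SCL library, a pattern held by 15% of all genes. GPI, TPI1, LDHB, PDK1, PFKFB2, PFKFB4 and PC were lower in both LF/LCL libraries, a pattern held by 15.1% of all genes. With LF/LCL replicate 1 or 2 left out the count was 20 or 22. Leaving a library out cannot lower this count, and the share over all genes is not given for these fits, so nothing is read from it. Neither count of the full comparison stands far from the background, so the counts are no result about these enzymes as a group.

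Most of the enzymes lay at nearly the same level in both groups. The median log2 fold change, LF/LCL over SF/SCL, was -0.01 over the enzymes, with 17 above and 18 below 0, and 0.01 over all genes tested. The log2 fold change was within 0.25 of 0 for 25 of 35 enzymes (71.4%) and for 56.4% of all genes. PFKFB3, PFKFB4 and HK2 (3 of 35 enzymes) differed by over 1 on the log2 scale, as did 1232 of the 15815 genes tested. Across the 5 libraries the highest value was under 1.5 times the lowest for 24 enzymes, and at least 2 times the lowest for 5, namely HK2, PFKFB4, PFKFB3, PDK4 and PDK1. The spread within groups, as the residual SD on the log2 scale, had a median of 0.19 over the enzymes and 0.23 over all genes tested.

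**Figure D1:**
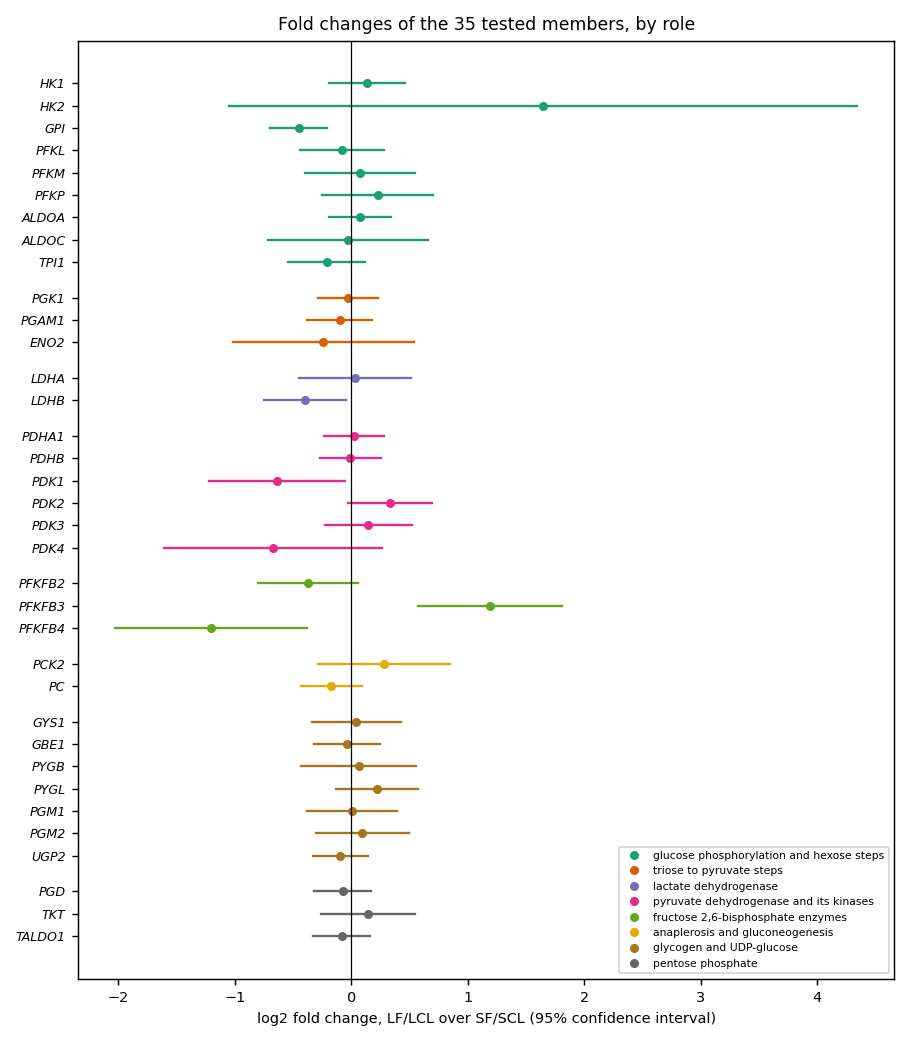
Log2 fold change, LF/LCL over SF/SCL, of each of the 35 tested enzymes (points) with its 95% confidence interval from limma (lines), ordered and coloured by role. The intervals of PFKFB3, PFKFB4, GPI, LDHB and PDK1 leave out 0, the interval of HK2 is the widest, and the glycogen and pentose phosphate enzymes lie within 0.25 of 0.

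The bifunctional PFKFB enzymes, which make and break down the sugar bisphosphate that activates phosphofructokinase, held the smallest p among the enzymes (PFKFB3) and differences in opposite directions. PFKFB3 (ENSBTAG00000008401), the isoform with the strongest kinase activity, was at 3271 and 3121 normalized reads in LF/LCL and at 1517, 1816 and 997 in SF/SCL. Both LF/LCL libraries thus stood well above the 3 SF/SCL libraries, and they lay close to each other. The means were 3196 ± 106 (SD, n = 2) and 1443 ± 415 (SD, n = 3), a ratio of 2.21. This gave a log2 fold change of 1.19 ± 0.25 (SE), a 95% confidence interval of 0.57 to 1.81 and an adjusted limma p of 0.248. The same gene had an adjusted p of 0.00309 with DESeq2, 0.0033 with the edgeR exact test and 0.254 with the edgeR quasi-likelihood test, so that its call rested on the test.

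PFKFB4 (ENSBTAG00000006752), an isoform that can act in either direction, was at 49.3 and 75.5 normalized reads in LF/LCL and at 147, 107 and 180 in SF/SCL. All 3 SF/SCL libraries were above both LF/LCL libraries, with the lowest of them well clear of the highest LF/LCL value. The means were 62.4 ± 18.6 (SD, n = 2) and 145 ± 36.6 (SD, n = 3), so that SF/SCL was 2.32 times LF/LCL. The log2 fold change was -1.20 ± 0.34 (SE), with an interval of -2.03 to -0.38, an adjusted limma p of 0.314 and an adjusted DESeq2 p of 0.0735. The lowest of these values rested on 42 reads. PFKFB2 (ENSBTAG00000002126), the isoform known from heart, was at 705 and 1003 in LF/LCL and at 1067, 1004 and 1201 in SF/SCL. Its groups touched without overlapping, since 1 LF/LCL library lay at the level of the lowest SF/SCL library, and its log2 fold change was -0.37 ± 0.18 (SE) with an adjusted limma p of 0.488.

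The balance of the PFKFB isoforms within a library does not depend on how the library was scaled. The log2 ratio of PFKFB3 to PFKFB4 was 6.02 and 5.35 in LF/LCL against 3.36, 4.07 and 2.46 in SF/SCL. The ratio of PFKFB3 to PFKFB2 was 2.21 and 1.64 in LF/LCL against 0.51, 0.85 and -0.27 in SF/SCL. For both pairs every LF/LCL library stood above every SF/SCL library. This followed from the single genes, since PFKFB3 was higher and PFKFB4 and PFKFB2 were lower in both LF/LCL libraries. The separation of the ratios therefore adds nothing to that of the genes. The groups differed by 2.39 and 1.56 on the log2 scale, each with an exact permutation p of 0.1 (two-sided), the smallest that 2 against 3 libraries allow, and 0.48 after adjustment over the 12 pairs compared.

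**Figure D2:**
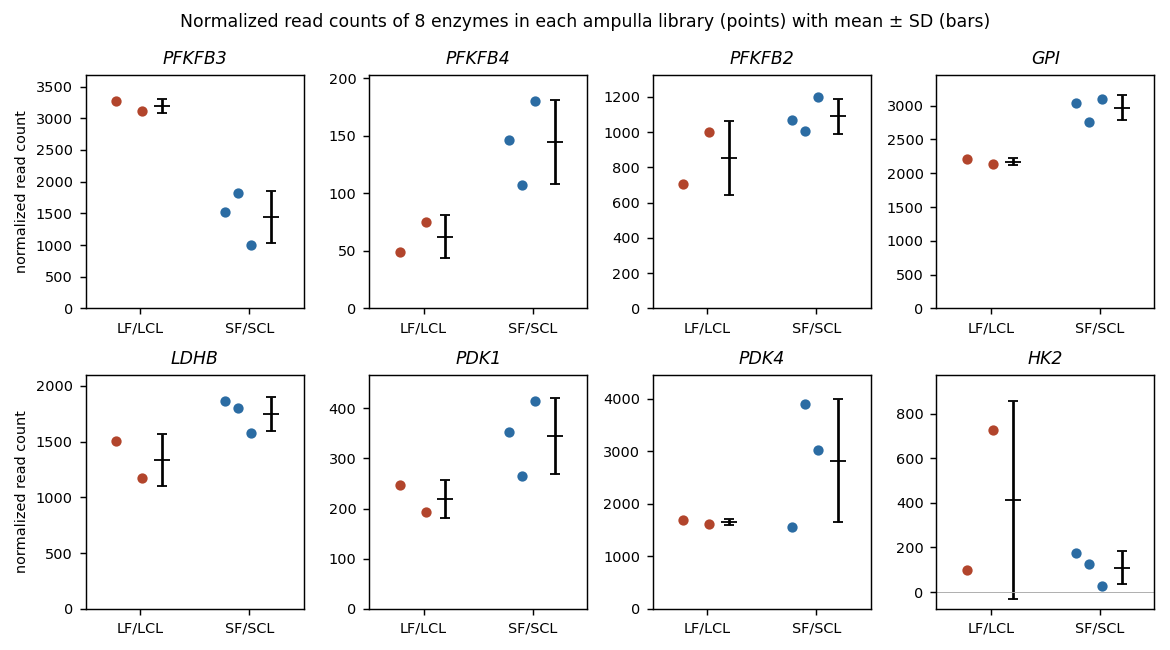
Normalized read counts (vertical axis, linear, from 0 except for HK2, whose SD bar crosses 0) of 8 enzymes in each library (points) with the mean ± SD of each group (bars), for LF/LCL (2 libraries) and SF/SCL (3 libraries). PFKFB3 was higher in both LF/LCL libraries, PFKFB4, PFKFB2, GPI, LDHB and PDK1 were lower in both, and PDK4 and HK2 overlapped.

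The smooth muscle markers moved with PFKFB3. From highest to lowest, their summed level ran in the order LF/LCL replicate 1, LF/LCL replicate 2, SF/SCL replicate 2, SF/SCL replicate 1 and SF/SCL replicate 3. PFKFB3, PDK2 and PDK3 lay in that same order (3 of 35 enzymes, 8.57%, against 2.02% of all genes tested), and PFKFB2, PFKFB4 and PC lay in exactly the reverse order (8.57% against 1.69%). The sizes were unlike within LF/LCL, where the muscle sum differed 1.93-fold between the libraries and PFKFB3 1.05-fold. Within SF/SCL the highest and lowest libraries differed 2.66-fold in the muscle sum, 1.82-fold in PFKFB3 and 1.68-fold in PFKFB4. The part of the muscle or ciliated content of the samples in the values of these enzymes was not tested.

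**Figure D3:**
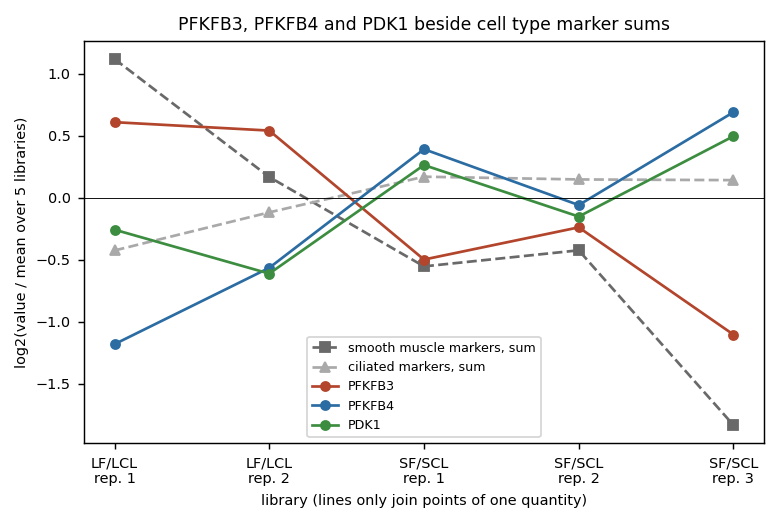
Log2 of the value over its mean across the 5 libraries (vertical axis) for the summed smooth muscle markers, the summed ciliated markers, PFKFB3, PFKFB4 and PDK1, by library (horizontal axis). The LF/LCL libraries differ by 1.93-fold in the muscle sum and by 1.05-fold in PFKFB3, and SF/SCL replicate 3 is lowest in both.

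In the hexose steps GPI was the enzyme with an unadjusted p under 0.05. GPI (ENSBTAG00000006396), which turns glucose 6-phosphate into fructose 6-phosphate, was at 2205 and 2138 normalized reads in LF/LCL and at 3045, 2764 and 3104 in SF/SCL. The LF/LCL libraries lay next to each other and below all 3 SF/SCL libraries. The means were 2171 ± 47.1 (SD, n = 2) and 2971 ± 181 (SD, n = 3), so that SF/SCL was 1.37 times LF/LCL. This gave a log2 fold change of -0.45 ± 0.10 (SE), with an interval of -0.70 to -0.21 and an adjusted limma p of 0.253. The adjusted p was 0.0165 with DESeq2 and 0.177 with the edgeR exact test. TPI1, which interconverts the triose phosphates, was at 2565 and 2595 in LF/LCL and at 3498, 2764 and 2752 in SF/SCL, and its groups did not overlap, though only SF/SCL replicate 1 stood far above the others.

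Hexokinase, the entry step, showed an even level of 1 isozyme and a scattered level of the other. HK2 (ENSBTAG00000013108), the inducible hexokinase, was at 99.7 and 727 normalized reads in LF/LCL and at 175, 126 and 27.9 in SF/SCL, and it was singled out after its values were seen. LF/LCL replicate 2 was far above every other library, LF/LCL replicate 1 lay among the SF/SCL libraries, and SF/SCL replicate 3 was lowest, at 26 reads. The means were 413 ± 444 (SD, n = 2) and 109 ± 74.7 (SD, n = 3). Its log2 fold change was 1.65 ± 1.09 (SE), with an interval of -1.05 to 4.34 and an adjusted limma p of 0.617. Its residual SD of 1.63 was in percentile 98.5 of all genes tested, and without LF/LCL replicate 2 the log2 fold change was 0.22, against 3.08 without LF/LCL replicate 1. HK1, the constitutive hexokinase, was at 3157 and 2566 in LF/LCL and at 2543, 2834 and 2397.5 in SF/SCL, within overlapping ranges.

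The other hexose enzymes overlapped between the groups. ALDOA (ENSBTAG00000012927), the aldolase that splits fructose bisphosphate, was at 4677 and 4025 normalized reads in LF/LCL and at 4274, 4006 and 4062 in SF/SCL, with a log2 fold change of 0.08 ± 0.11 (SE), an interval of -0.19 to 0.34 and an adjusted limma p of 0.839. The 3 phosphofructokinase genes, which encode the liver, muscle and platelet subunits, had log2 fold changes of -0.08 (PFKL), 0.08 (PFKM) and 0.23 (PFKP). PFKL ranged from 1604 to 2129 over the 5 libraries, PFKM from 413 to 611, PFKP from 454 to 732 and the brain aldolase ALDOC from 195 to 340. The intervals of PFKM and PFKP reach 0.55 and 0.70, so a difference of up to that size cannot be told from none with these libraries.

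In the steps from triose to pyruvate none of the 3 tested enzymes had a log2 fold change beyond 0.25. PGAM1 (ENSBTAG00000012697), the phosphoglycerate mutase, was at 2709 and 2559 normalized reads in LF/LCL and at 3081, 2555 and 2855 in SF/SCL, with a log2 fold change of -0.10 ± 0.12 (SE), an interval of -0.38 to 0.18 and an adjusted limma p of 0.797. PGK1, the kinase that makes the first ATP of this stretch, ranged from 2521 to 2880, and ENO2, the neuronal enolase, from 68.7 to 119.6. The interval of the log2 fold change of ENO2 was wide, at -1.02 to 0.54. GAPDH (ENSBTAG00000021624) had 1 read in LF/LCL replicate 1, 2 reads in LF/LCL replicate 2 and none in SF/SCL, which is at or under a floor of 3 counts per library, so no fold is given. This enzyme is used by nearly every cell, and the entry with its symbol therefore cannot be read as its level. Whether its reads were lost to near-identical copies was not tested.

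Of the lactate dehydrogenase subunits, the heart form was lower in LF/LCL and the muscle form overlapped. LDHB (ENSBTAG00000019603) was at 1501 and 1170.2 normalized reads in LF/LCL and at 1867, 1805 and 1577 in SF/SCL. LF/LCL replicate 1 came close to the lowest SF/SCL library but stayed below it. The means were 1336 ± 234 (SD, n = 2) and 1750 ± 153 (SD, n = 3), and the log2 fold change was -0.40 ± 0.15 (SE), with an interval of -0.75 to -0.04 and an adjusted limma p of 0.396, and it was -0.22 without LF/LCL replicate 2. LDHA was at 478 and 732 in LF/LCL and at 619.7, 551 and 567 in SF/SCL, so that its lowest and highest libraries were both LF/LCL. The log2 ratio of LDHA to LDHB was -1.65 and -0.68 in LF/LCL against -1.59, -1.71 and -1.47 in SF/SCL. LF/LCL replicate 2 alone stood apart, and the groups overlapped (exact permutation p of 0.4, two-sided, 0.667 adjusted).

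The pyruvate dehydrogenase subunits were even, and some of their kinases were not. PDHA1, the catalytic alpha subunit, was at 1554 and 1451 in LF/LCL and at 1438, 1414 and 1592 in SF/SCL, and PDHB, the beta subunit, ranged from 921 to 1044. Their log2 fold changes were 0.02 ± 0.11 and -0.01 ± 0.11 (SE), with intervals that reach no further than 0.28 in either direction. Among the kinases, PDK1 (ENSBTAG00000016836) was at 246 and 193 in LF/LCL and at 353, 265 and 415 in SF/SCL. All SF/SCL libraries were above both LF/LCL libraries, the nearest pair being SF/SCL replicate 2 and LF/LCL replicate 1. The means were 219 ± 37.9 (SD, n = 2) and 345 ± 75.5 (SD, n = 3), and the log2 fold change was -0.64 ± 0.24 (SE), with an interval of -1.22 to -0.05 and an adjusted limma p of 0.409.

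PDK4 (ENSBTAG00000014069), the kinase known to respond to fasting and fatty acids, was at 1698 and 1614 normalized reads in LF/LCL and at 1559.5, 3896 and 3024 in SF/SCL. SF/SCL replicates 2 and 3 were far above the other libraries, and SF/SCL replicate 1 was the lowest of the 5. The means were 1656 ± 59.8 (SD, n = 2) and 2827 ± 1181 (SD, n = 3), and the log2 fold change was -0.67 ± 0.38 (SE), with an interval of -1.61 to 0.26 and an adjusted limma p of 0.557. It was -1.05 without SF/SCL replicate 1 (adjusted limma p of 0.232), -0.39 without SF/SCL replicate 2 (adjusted limma p of 0.715) and -0.57 without SF/SCL replicate 3. PDK2, a widely expressed kinase, was at 697 and 567 in LF/LCL and at 486, 545 and 467 in SF/SCL, and PDK3 ranged from 271 to 292 in LF/LCL and from 240.4 to 262 in SF/SCL. Both were higher in LF/LCL with narrow gaps between the groups, at log2 fold changes of 0.34 and 0.15 and adjusted limma p of 0.462 and 0.77.

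Relative to PDK2, PDK1, PDK4 and PDHA1 were lower in both LF/LCL libraries. The log2 ratio of PDK1 to PDK2 was -1.496 and -1.55 in LF/LCL against -0.46, -1.04 and -0.17 in SF/SCL. That of PDK4 to PDK2 was 1.28 and 1.51 in LF/LCL against 1.68, 2.84 and 2.69 in SF/SCL. Neither pair overlapped between the groups, nor did PDHA1 to PDK2, and the differences were -0.97, -1.01 and -0.31. Each of these had an exact permutation p of 0.2 (two-sided) and 0.48 after adjustment. For PDK1 to PDK2 the separation followed from the single genes, since PDK1 was lower and PDK2 higher in both LF/LCL libraries. Of the 12 pairs, 5 did not overlap between the groups, 2 with the ratio higher in LF/LCL and 3 with it higher in SF/SCL. These pairs share PFKFB3 or PDK2, single genes did not overlap in 30.1% of cases, and the share over pairs of all genes was not computed, so nothing is read from this count. Those that overlapped were LDHA to LDHB, HK1 to HK2, PFKM to PFKP, PFKL to PFKP, ALDOA to ALDOC, PYGB to PYGL and GYS1 to PYGB, and none reached an adjusted p under 0.48.

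**Figure D4:**
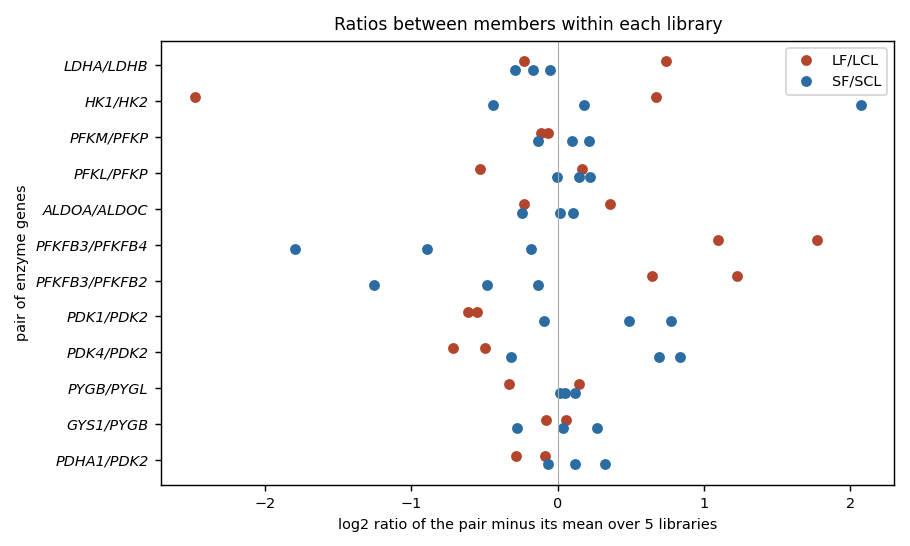
Log2 ratio of the first to the second enzyme of each of 12 pairs in each library, minus the mean of that pair over the 5 libraries (horizontal axis), with pairs on the vertical axis and libraries coloured by group. PFKFB3 to PFKFB4 and PFKFB3 to PFKFB2 were higher in both LF/LCL libraries, PDK1, PDK4 and PDHA1 to PDK2 were lower in both, and the other 7 pairs overlapped.

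Mitochondrial pyruvate carboxylase and PCK2, which lead carbon away from pyruvate oxidation, showed small differences. PC (ENSBTAG00000019700) was at 883 and 967 normalized reads in LF/LCL and at 1018, 1003 and 1105 in SF/SCL. These values lay close but did not overlap between the groups, with a log2 fold change of -0.17 ± 0.11 (SE), an interval of -0.43 to 0.09 and an adjusted limma p of 0.594, and it was -0.11 without LF/LCL replicate 1. PCK2, the mitochondrial phosphoenolpyruvate carboxykinase, was at 144 and 161 in LF/LCL and at 149, 119 and 111 in SF/SCL, with overlapping groups.

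The 7 enzymes of glycogen and UDP-glucose all had log2 fold changes within 0.25 of 0, and none had an unadjusted p under 0.05. PYGL (ENSBTAG00000011494), the liver-type phosphorylase that releases glucose 1-phosphate from glycogen, was at 6430.3 and 6604 normalized reads in LF/LCL and at 6085, 6119 and 4692 in SF/SCL. Its groups did not overlap, and SF/SCL replicate 3 stood below the other 4 libraries, which lay close together. The log2 fold change was 0.22 ± 0.15 (SE), with an interval of -0.13 to 0.58 and an adjusted limma p of 0.615, and it was 0.09 without SF/SCL replicate 3. Glycogen synthase GYS1 ranged from 874 to 1133 over the 5 libraries, the branching enzyme GBE1 from 533 to 594, and the brain-type phosphorylase PYGB from 674 to 1007. The phosphoglucomutases PGM1 and PGM2 ranged from 946 to 1231 and from 708 to 971, and UGP2, which makes UDP-glucose, from 1842 to 2105. All 6 had overlapping groups, and UGP2 and GBE1 were among the enzymes with the least spread, with residual SDs of 0.07.

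The 3 pentose phosphate enzymes were likewise level. TALDO1 (ENSBTAG00000010336), the transaldolase of the sugar-exchanging branch, was at 3063 and 3071 normalized reads in LF/LCL and at 3317, 3399 and 3029.6 in SF/SCL, and its groups overlapped through SF/SCL replicate 3. Its log2 fold change was -0.08 ± 0.10 (SE), with an interval of -0.32 to 0.16 and an adjusted limma p of 0.81. PGD, which yields NADPH, ranged from 1357 to 1542, and TKT, the transketolase, from 2274 to 3145. For PGD the interval of the log2 fold change was -0.32 to 0.17, and for TKT -0.26 to 0.55.

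**Figure D5:**
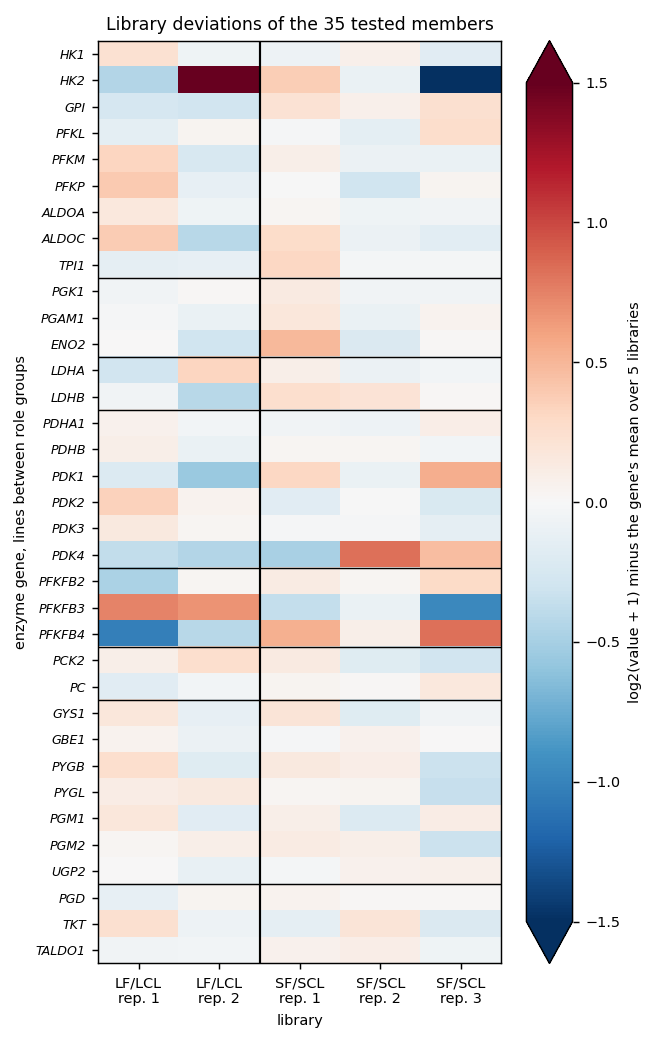
Log2(value + 1) of each of the 35 tested enzymes minus its mean over the 5 libraries (colour, limited to between -1.5 and 1.5), with enzymes grouped by role on the vertical axis and libraries on the horizontal axis. Red marks a value above the mean of that enzyme and blue below it. HK2, PFKFB3, PFKFB4, PDK4 and PDK1 carry the strongest colours, and LF/LCL replicate 1 and SF/SCL replicate 3 are most often at an extreme.

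No single library set the enzymes apart as a whole. LF/LCL replicate 1 was the highest of the 5 libraries for 12 enzymes and the lowest for 6, and SF/SCL replicate 3 was the highest for 8 and the lowest for 12. LF/LCL replicate 2 was highest for 4 and lowest for 9, SF/SCL replicate 1 highest for 8 and lowest for 1, and SF/SCL replicate 2 highest for 3 and lowest for 7. The median deviation of the enzymes in a library from their own means lay between -0.08 and 0.09 on the log2 scale. LF/LCL replicate 1 and SF/SCL replicate 3 were also the libraries with the highest and lowest smooth muscle sums, and the part of this in the extremes was not tested.

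Of 84 further genes of the same pathways, 77 were matched by symbol and 70 entries were tested. None passed an adjusted limma p of 0.05, 8 had an unadjusted p under 0.05 (11.4%), with 2 higher in LF/LCL and the other 6 in SF/SCL, and 22 had groups that did not overlap (31.4%), shares close to those of all genes tested. DESeq2 called 3 of the 70, ENO4, PGM2L1 and PYGM, where it called 2.89% of all genes tested. The edgeR exact test called the same 3, where it called 2.12% of all genes tested. PKM2, the entry for the pyruvate kinase that ends glycolysis, was chosen after its values were seen. It was at 5091 and 4439.9 in LF/LCL and at 5872, 4562 and 5398 in SF/SCL, which overlapped, with a log2 fold change of -0.14 ± 0.14 (SE).

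PYGM (ENSBTAG00000001032), the muscle-type glycogen phosphorylase, was at 138 and 126 normalized reads in LF/LCL and at 52.0, 67.6 and 46.1 in SF/SCL. Both LF/LCL libraries were above all SF/SCL libraries. The 5 libraries lay in the order of their smooth muscle sums, as they did for 2.02% of all genes tested. The part of muscle content in the PYGM values was not tested. Its log2 fold change was 1.26 ± 0.30 (SE), with an adjusted p of 0.275 with limma and 0.0165 with DESeq2. The liver and brain phosphorylases PYGL and PYGB differed by 0.22 and 0.06 on the log2 scale in the same libraries.

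ENO4 (ENSBTAG00000004330), an enolase family member known from the sperm tail, was at 910.1 and 1042 normalized reads in LF/LCL and at 1548, 1369 and 1524 in SF/SCL. Every SF/SCL library was higher, a pattern held by 15.1% of all genes tested. The summed ciliated markers were also higher in SF/SCL, though the order of the SF/SCL libraries differed between them and ENO4. The part of ciliated content in the ENO4 values was not tested. For ENO4 the log2 fold change was -0.60 ± 0.12 (SE), with an adjusted p of 0.222 with limma and 0.00675 with DESeq2. PGM2L1 (ENSBTAG00000000770), which makes glucose 1,6-bisphosphate, was at 157 and 83.2 in LF/LCL and at 279.7, 295 and 484 in SF/SCL, and these ranges were well apart. Its log2 fold change was -1.57 ± 0.36 (SE), with an adjusted p of 0.273 with limma and 0.00893 with DESeq2.

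The pentose and phosphorylase kinase genes with the next smallest p ran in both directions. RPIA, the ribose 5-phosphate isomerase, was at 231 and 198 in LF/LCL and at 307, 325 and 448 in SF/SCL (log2 fold change -0.73 ± 0.21 SE, adjusted limma p 0.329). PHKG1, a catalytic subunit of phosphorylase kinase, was at 279 and 194 in LF/LCL and at 339, 361 and 445 in SF/SCL (log2 fold change -0.70 ± 0.22 SE, adjusted limma p 0.347). DERA, an aldolase of deoxyribose phosphate, was at 1093 and 1043 in LF/LCL and at 894, 799 and 796 in SF/SCL (log2 fold change 0.37 ± 0.11 SE, adjusted limma p 0.331). None of the 3 overlapped between the groups, and DESeq2 called none of them.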

How the data were processed

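Messenger RNA of ampulla tissue was sequenced from 5 cows. Per the labels and the study's methods, the authors made polyA libraries, trimmed the reads, aligned them to the masked UMD cattle genome with TopHat2 2.0.8 and Bowtie2 2.1.0, and counted uniquely and unambiguously mapped reads per Ensembl gene with HTSeq 0.5.4p2 (versions from the submitters' processing notes). The deposited values are a normalized signal: read counts that the authors divided by 1 DESeq 1.12.1 size factor per library. Whether counting used strand is not given in the sources used here, so overlapping and antisense genes, and genes with near-identical copies, are uncertain.

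Every nonzero value was a whole multiple of 1 step per library, and division by it returned whole reads for 100% of values within 0.01 read. Genes with few reads are the least precise.

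Genes with a mean value over 5 (15815) were tested with limma 3.58.1 (R 4.3.3) on log2(value + 1) with trend and robust settings, all 5 libraries and no covariates. P-values are two-sided and Benjamini-Hochberg adjusted over the 15815 genes, and called at 0.05. Fold changes are on the log2(value + 1) scale, which understates the change of low genes. DESeq2 1.42.0 and edgeR 4.0.16 (quasi-likelihood and exact tests, TMM) and limma-voom were run on recovered reads. Log2 ratios of 12 pairs of enzymes (of 13 listed, since ENO1 was not matched) were compared by an exact permutation test over the 10 ways to place the libraries. Normalized reads are not divided by transcript length, so levels of different genes are not compared. The scripts were tested on simulated data.

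Named with full values were enzymes with an unadjusted limma p or adjusted DESeq2 p under 0.05 and the enzyme with the highest mean of each role group, and up to 6 further pathway genes by p. The members, roles and lists were chosen with earlier results of these data known. No sequences or coordinates are given.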

Additional observations from a re-analysis of the deposited data

How the results depend on the processing

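The enzymes were refitted under 16 alternatives, 11 of which kept every library. The number of enzymes with an adjusted p under 0.05 was 0 with limma, 2 with DESeq2 (PFKFB3 and GPI) and 1 with the edgeR exact test (PFKFB3), and 0 in the other 14 alternatives. Counts over all genes are not given for those 14, so nothing is read from their 0. The number with an unadjusted p under 0.05 was 5. It was 3 in limma without trend and robust settings, where LDHB and PDK1 were lost, and 4 with limma-voom, where PDK1 was lost. It was 6 with DESeq2, which added PDK4, and 7 with the edgeR exact test, which added HK2 and PDK4. With no filter on low values it was 6. The addition there was GAPDH, whose entry had at most 2 reads in a library and cannot be read as its level. It was 4 without any 1 SF/SCL library and 5 in the other alternatives that kept every library. Which enzymes made up the 4 differed between the fits without an SF/SCL library, and PDK4 was among them without SF/SCL replicate 1. With a library left out, GPI and PFKFB3 kept an unadjusted p under 0.05 in all 5 fits. PFKFB4 lost it without LF/LCL replicate 1 (log2 fold change -0.90), LDHB without LF/LCL replicate 2 (-0.22) or SF/SCL replicates 1 or 2, and PDK1 without LF/LCL replicate 2 (-0.46) or SF/SCL replicates 1 or 3. None of these 5 changed sign in any alternative. Without an LF/LCL library the other is alone in its group and is assumed to vary like the rest.

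With each library left out in turn, the median log2 fold change of the enzymes was lowest without LF/LCL replicate 1 (-0.0979) and highest on leaving out LF/LCL replicate 2 (0.0638), the number of enzymes whose groups did not overlap from 13 to 22 against 11, and the number of pairs whose ratio did not overlap from 5 to 9. Fewer libraries overlap less often by construction, and shares over all genes are not given for these fits, so nothing is read from these counts. Of the 35 enzymes, 12 changed sign without LF/LCL replicate 1 (PFKP, at 0.23 in the full comparison, the furthest from 0), 3 to 5 in each other fit with a library left out, and 0 to 3 in those that kept every library. Among the named enzymes, ALDOA ranged from -0.0312 (without LF/LCL replicate 1) to 0.186. Group differences in log2 ratio that changed sign were, with their ranges, PFKL to PFKP (-0.653 to 0.0427, the latter without LF/LCL replicate 1) and GYS1 to PYGB (-0.164 to 0.11, above 0 without LF/LCL replicate 1, at 0.0497, or SF/SCL replicate 3). Those that changed sign without LF/LCL replicate 2 were LDHA to LDHB (-0.0559 to 0.915), HK1 to HK2 (-3.09 to 0.067), ALDOA to ALDOC (-0.188 to 0.398) and PYGB to PYGL (-0.395 to 0.0799). The cause was not tested.

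No paired analysis was possible because the labels number animals and no number is shared between the groups. With 2 and 3 libraries, the interval of a typical enzyme reached 0.37 to either side of its log2 fold change. Smaller differences of such an enzyme cannot be told from 0. This is no limit above which differences were detected, since limma called neither PFKFB3 at 1.19 nor PFKFB4 at -1.20.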
